A study of Apis mellifera with 18 samples.

Results

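The major royal jelly protein family was followed across 18 RNA sequencing libraries of honey bee (Apis mellifera) tissue as 10 genes, named here by the GB identifiers of the authors' table. They were chosen by a rule that combined the Pfam domain of major royal jelly proteins with the counts seen in these same libraries, and they are 10 of the 28 rows that carry the domain and of 17545 genes in all. Of the members, 8 have identifiers in the run GB55204 to GB55212, and GB45796 and GB45797 are the other two. Because their counts helped to choose them, their levels and differences are given as a description. They took part in the fits across all genes, and where the text counts how many of them those fits called, the count is not evidence about the family.

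Major royal jelly proteins are the main proteins of royal jelly, the secretion that nurse bees make in the hypopharyngeal glands of the head and feed to larvae and to the queen. The family arose from the yellow proteins of insects, which are known for roles in pigment and cuticle. In bees that forage, the same gland is known to make more of the enzymes that process nectar sugar, among them alpha-glucosidase, alpha-amylase and glucose oxidase. Gene names were taken from the KEGG hit in the authors' table before a Swiss-Prot or NR protein entry. Hits in different databases were not ranked against each other. The name so taken was a yellow-f or yellow-f2-like protein for GB55204, GB55205, GB55207, GB55208 and GB55212. For the rest the table gave no KEGG hit with an e-value of at most 1e-10. No member had such a hit to a honey bee gene of the reference gene table. The reference gene table lists 9 numbered Mrjp genes within 12 successive gene rows but does not tie them to GB identifiers, so no member is given a number of its own, a role of its own or a sequence here.

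The libraries came from mouthparts and from a tissue labelled tentacles, each sampled in bees that gathered Olea europaea (olive) pollen, called olea here, in bees that gathered pear pollen, and in control bees with no pollen, with 3 libraries per tissue and group. By its title the series concerns what Italian honey bees prefer to collect. Its labels give no age, no colony, no caste and no word on whether replicates were separate bees or pools, so the spread between libraries may be technical. Labels conflict for the 3 mouthparts libraries grouped as olea, whose titles and source names say pear and whose genotype entries say Olea europaea. Their codes begin with YH, and those of the olea tentacles libraries begin with YC. Every value for olea mouthparts, and every contrast of olea with pear mouthparts, rests on trusting the genotype entry over the title and source name. Levels are counts per 1e6 counts of a library (CPM), computed from the authors' raw counts, and levels of different genes are compared only in the deposited FPKM, which divides by transcript length. Library totals ran from 25.9 to 41.4 M (1e6 counts).

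Marker genes set the tissues apart. The odorant receptor co-receptor (GB40730), which insect olfactory neurons use, lay between 415 and 631 CPM in the 9 tentacles libraries. In mouthparts it had 2, 2 and 13 counts in olea, 0 in each pear library, and 136, 128 and 66 counts in control, so the control mouthparts held the most of this marker (at least 147-fold more than pear, with a floor of 3 counts over the pear group). Proboscipedia (GB51302), the homeotic gene of insect mouthpart identity, lay between 60.8 and 103 CPM in mouthparts and had no count in olea tentacles and 4 to 13 counts in the other tentacles libraries. The part of the co-receptor difference in the mouthparts results was not tested.

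The family was a leading product of control tissue and a trace in pear mouthparts and in tentacles of both pollen groups. Olea mouthparts lay between these levels. Its 10 members together took 0.0747% ± 0.0630 of all counts in olea mouthparts and 0.00258% ± 0.000445 in pear mouthparts, against 7.46% ± 0.299 in control mouthparts (SD, n = 3 each). In tentacles the share was 0.00076% ± 8.29e-05 in olea and 0.000554% ± 0.000108 in pear, against 2.30% ± 0.491 in control (SD, n = 3 each). No pollen library came within the range of its control group in either tissue. In these bulk tissues fewer cells that make the transcripts and less transcript per cell cannot be told apart.

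**Figure D1:**
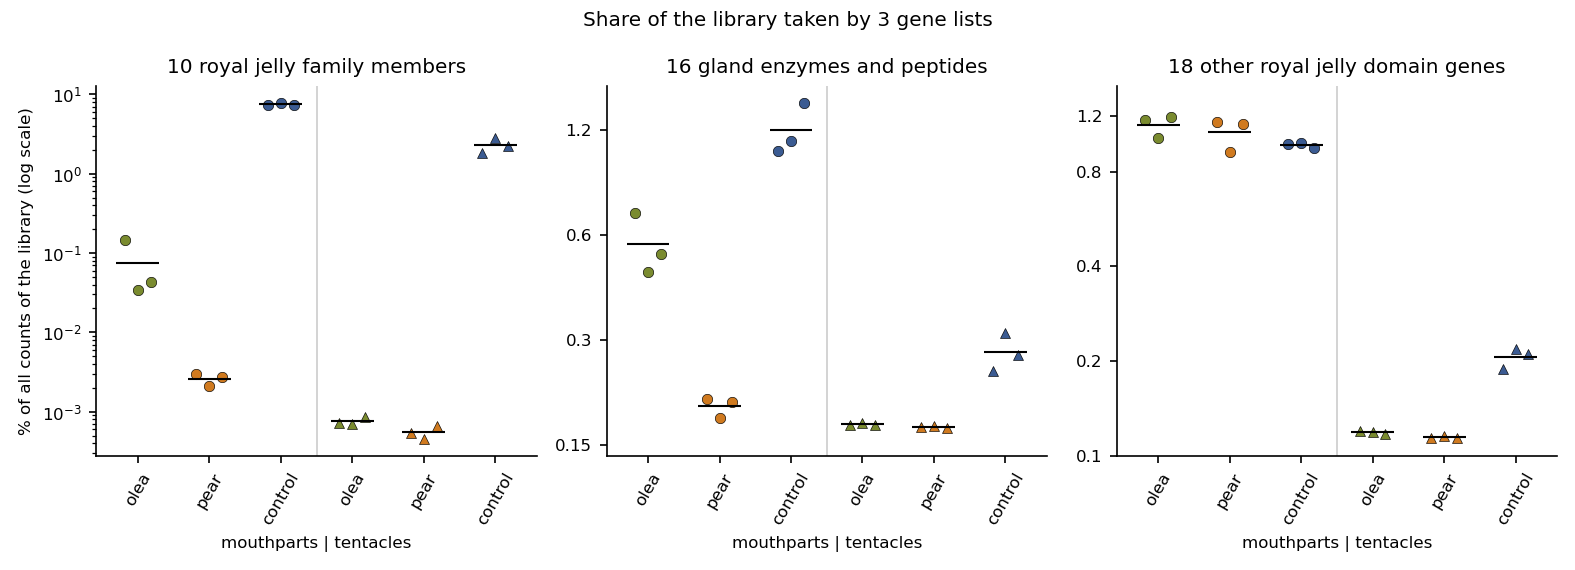
Share of all counts of a library taken by the 10 members, by the 16 genes of the gland enzymes and peptides list, all of them enzymes, and by the 18 other genes with the royal jelly domain (log scales that differ between panels; points are libraries, bars are means, n = 3 per group). The members span from under 0.001% in tentacles of both pollen groups to over 7% in control mouthparts. The other domain genes sum to between 0.927% and 1.19% in all mouthparts libraries, a sum that holds both GB45951, which rose, and GB55213, which fell. In tentacles they sum to 0.118% to 0.120% in olea and 0.114% to 0.116% in pear, against 0.189% to 0.219% in control.

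By FPKM, GB55205 had the highest level of the 10 members in controls of both tissues. GB55205 measured 828, 181 and 242 CPM in olea mouthparts and 5.68, 2.61 and 4.14 CPM in pear mouthparts, against 41256, 44389.5 and 41286 CPM in control mouthparts. In tentacles it measured 1.02, 1.59 and 1.66 CPM in olea tentacles and 0.996, 1.3 and 1.61 CPM in pear tentacles, against 8659, 14500.5 and 11013 CPM in control tentacles. By FPKM it had rank 152, 754 and 583 of 17545 genes in the olea mouthparts libraries, against rank 1 in every control mouthparts library, and it lay between rank 4 and rank 7 in control tentacles. The mean was 101-fold lower in olea mouthparts and 10209.8-fold lower in pear mouthparts than in control, and 7998-fold lower in olea and 8753-fold lower in pear tentacles. Olea mouthparts replicate 1 was the highest of its group, and without it the group mean was 211 CPM and the fold against control 200.2.

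GB45797 and GB45796, the 2 members outside the numbered run, stood far apart in level, at 6671 and 457 FPKM on average in control mouthparts. GB45797 measured 100.3, 22.3 and 15.6 CPM in olea mouthparts and 0.471, 0.129 and 0.406 CPM in pear mouthparts, against 4335, 4465 and 4573 CPM in control mouthparts. Its tentacles libraries measured 0.152, 0.265 and 0.141 CPM in olea tentacles and 0.225, 0.137 and 0.23 CPM in pear tentacles, against 963, 1865 and 1234 CPM in control tentacles. The groups of pollen libraries lay wholly below control, and olea mouthparts lay wholly above pear mouthparts. Its mean was 96.8-fold lower in olea and 13287-fold lower in pear mouthparts than in control, and the drop in pear was the steepest of any member in mouthparts. Without olea mouthparts replicate 1 the drop in olea was 235-fold. Its neighbour by number had almost no counts in tentacles of bees with pollen. GB45796 measured 1.5, 0.708 and 1.2 CPM in olea mouthparts and 0.645, 0.802 and 0.947 CPM in pear mouthparts, against 515, 582 and 579 CPM in control mouthparts. In tentacles the values were 0, 0.0993 and 0.0353 CPM in olea tentacles and 0.0642, 0 and 0.23 CPM in pear tentacles, against 209.6, 267 and 218 CPM in control tentacles. GB45796 was at about 1 CPM with either pollen in mouthparts and had 0, 3 and 1 counts in olea tentacles and 2, 0 and 7 counts in pear tentacles. A count of 0 at these depths allows up to 0.114 CPM in the olea library and 0.103 CPM in the pear library, for counting error only.

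GB55212 and GB55204 averaged 6238 and 4017 FPKM in control mouthparts. GB55212 measured 78.7, 12 and 18.1 CPM in olea mouthparts and 4.32, 3.31 and 4.33 CPM in pear mouthparts, against 10881, 11693 and 11033 CPM in control mouthparts. It measured 0.759, 1.06 and 1.31 CPM in olea tentacles and 0.707, 0.548 and 0.82 CPM in pear tentacles, against 3472, 4721 and 4245 CPM in control tentacles. Again control libraries were apart from all others, and pear mouthparts lay below olea mouthparts. GB55204 measured 31.3, 5.37 and 7.7 CPM in olea mouthparts and 2.58, 1.97 and 2.33 CPM in pear mouthparts, against 7799, 8310.5 and 7851 CPM in control mouthparts. For the same gene, tentacles measured 0.531, 0.364 and 0.424 CPM in olea tentacles and 0.418, 0.274 and 0.525 CPM in pear tentacles, against 3191, 4289.6 and 3575 CPM in control tentacles. GB55204 was 8381-fold lower in olea and 9089-fold lower in pear tentacles than in control, the steepest drops of the 10 in that tissue by the ratio of mean CPM over all 3 libraries. Without olea tentacles replicate 2 that of GB45796 was steeper, at 13119-fold. With libraries left out in turn, the fold of GB55204 ran from 7694 to 9356 in olea and from 7820 to 10659 in pear tentacles. Those ranges overlapped the ones of GB55205, 6906 to 8957 and 7558 to 9919, so the ranking is not firm.

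GB55211 and GB55206 were low with either pollen in both tissues. GB55211 measured 21, 3.24 and 3.87 CPM in olea mouthparts and 2.88, 1.89 and 2.84 CPM in pear mouthparts, against 2350.0, 2668 and 2540.4 CPM in control mouthparts. Tentacles values were 0.835, 0.43 and 0.671 CPM in olea tentacles and 0.514, 0.377 and 0.459 CPM in pear tentacles, against 787, 997 and 960.0 CPM in control tentacles. All control values were higher than all pollen values. GB55206 measured 9.05, 3.61 and 3.09 CPM in olea mouthparts and 4.51, 2.85 and 3.57 CPM in pear mouthparts, against 1669.8, 1769.7 and 1673 CPM in control mouthparts. The tentacles gave 0.759, 0.695 and 1.09 CPM in olea tentacles and 0.482, 0.479 and 0.295 CPM in pear tentacles, against 452, 651 and 571 CPM in control tentacles. For GB55206 the olea and pear mouthparts libraries overlapped.

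GB55208 and GB55209 kept more of the control level in olea mouthparts than GB55211 and GB55206. GB55208 measured 113, 19 and 27.1 CPM in olea mouthparts and 1.22, 0.802 and 1.19 CPM in pear mouthparts, against 1749.6, 2017 and 1845 CPM in control mouthparts. In the tentacles it measured 0.721, 0.463 and 0.742 CPM in olea tentacles and 0.578, 0.342 and 0.525 CPM in pear tentacles, against 384, 472 and 407 CPM in control tentacles. Olea mouthparts stood between pear and control with no overlap. GB55209 measured 54.3, 14.6 and 16.9 CPM in olea mouthparts and 0.645, 0.388 and 0.325 CPM in pear mouthparts, against 1096, 1317 and 1221 CPM in control mouthparts. Values in tentacles were 0.228, 0.298 and 0.106 CPM in olea tentacles and 0.128, 0.24 and 0.23 CPM in pear tentacles, against 287, 412 and 290.1 CPM in control tentacles. The same order of mouthparts groups held, with means 42.4-fold lower in olea and 2677-fold lower in pear than in control. Without olea replicate 1 GB55209 was 77.1-fold lower in olea.

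GB55207 was low in control tentacles and high, for its control level, in olea mouthparts. GB55207 measured 235, 75.6 and 95 CPM in olea mouthparts and 6.65, 6.18 and 6.95 CPM in pear mouthparts, against 653, 767 and 907 CPM in control mouthparts. Tentacles libraries of this gene measured 2.28, 1.72 and 2.37 CPM in olea tentacles and 1.25, 0.856 and 1.77 CPM in pear tentacles, against 14.6, 17.9 and 17.4 CPM in control tentacles. In control tentacles it averaged 9.87 FPKM, against 188 to 7112 FPKM for the other 9 members, and its mean CPM was 46.6-fold higher in control mouthparts than in control tentacles. The same ratio was 2.17 to 4.44 for the other 9 members. In olea mouthparts it kept 9.74% to 30.3% of the control mean, the highest share of any member, and its mean was 5.73-fold lower than in control, or 9.10-fold without olea replicate 1.

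**Figure D2:**
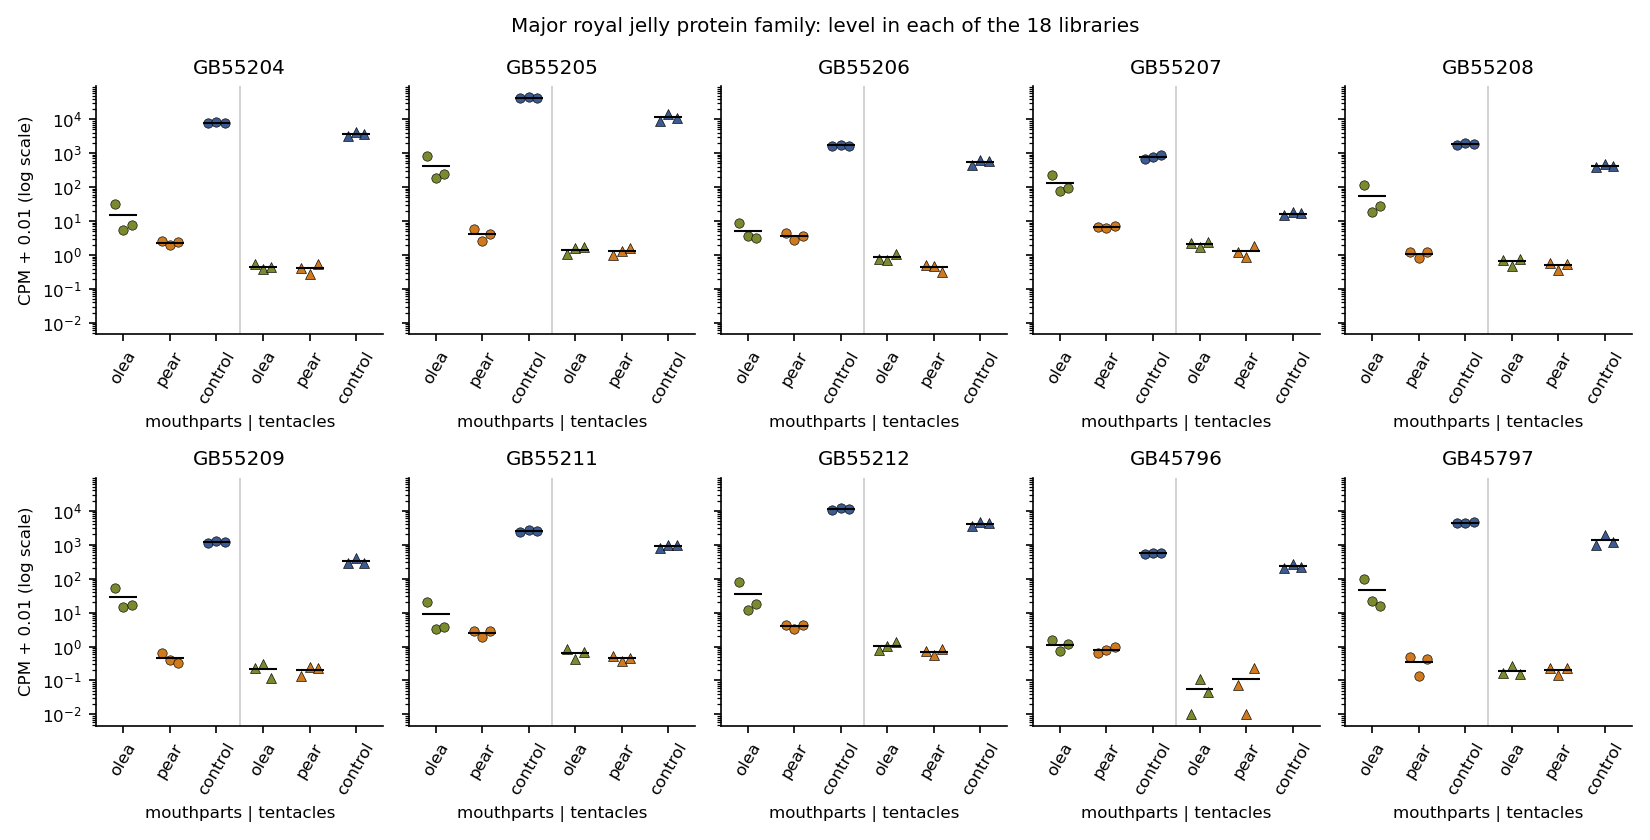
CPM + 0.01 of each member (log scale) in the 18 libraries, with olea, pear and control from left to right in mouthparts (circles) and then in tentacles (triangles); bars are means of 3 libraries. Control mouthparts are the top of every panel, olea mouthparts form a middle level in most panels, and GB55207 is the panel where control tentacles lie below olea mouthparts.

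How much of the control level was left varied by member and by tissue. Leaving GB55207 aside, the other 9 members kept 0.0672% to 6.06% of the control mean in olea mouthparts libraries and 0.0029% to 0.265% in pear mouthparts libraries. In tentacles these 9 kept at most 0.196% in olea and at most 0.137% in pear. GB55207 kept 10.3% to 14.2% in olea tentacles and 5.14% to 10.6% in pear tentacles, next to 0.797% to 0.897% in pear mouthparts. Within olea mouthparts the members fell along a wide scale: GB55208 kept 1.02% to 6.06% and GB55209 kept 1.2% to 4.48%, while GB55204 kept 0.0672% to 0.392% and GB45796 kept 0.127% to 0.268%.

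Against control, all 10 members were past adjusted p 0.05 and lower in each of the 4 comparisons of a pollen group with its control, where the share of all tested genes past it was 26.8% for olea mouthparts, 33.8% for pear mouthparts, 27.9% for olea tentacles and 29.5% for pear tentacles (edgeR quasi-likelihood test, adjusted over all genes tested). Pollen and control libraries overlapped for no member in any of these comparisons. Of genes with a count, 37.5% did not overlap for olea mouthparts, 44.4% for pear mouthparts, 35.8% for olea tentacles and 36.2% for pear tentacles. Since counts were used to choose the members, these counts are not evidence about the family. The olea and pear comparisons of a tissue share its control libraries. The ratio of control to pollen means ran from 5.73 to 539.8 in olea mouthparts (median 185) and from 118 to 13287 in pear mouthparts (median 2213). In tentacles it ran from 7.85 to 8381 for olea (median 2773) and from 12.9 to 9089 for pear (median 2199). Without olea mouthparts replicate 1, 9 of the 10 ratios in olea mouthparts moved by over 1.5 times, to 9.10 for GB55207 at the low end and 1223 for GB55204 at the high end. In tentacles GB45796 alone moved so far, to 13119 without olea replicate 2 and to 7213 without pear replicate 3. Counting the 3 conflicting mouthparts libraries as pear, as their titles say, left 9 of 10 members past the threshold in mouthparts and set the fitted log2 fold change of GB55205 to -7.71, and 1809 of all genes passed, against 4157.

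Olea and pear mouthparts libraries did not overlap for 8 of the 10 members, where 36.3% of genes with a count did not, and olea and pear tentacles did not for 1, where 24.0% of genes did not. In mouthparts 7 members were past the threshold and higher in olea, 0 were lower, and 30.9% of all tested genes passed, a count that is not evidence here either. In tentacles 0 of 10 passed with edgeR or DESeq2 and 1 had an unadjusted edgeR p under 0.05, where 2.6% of all tested genes passed. GB55206 was the member whose tentacles libraries did not overlap, with olea 2.03-fold higher by the ratio of means. By the ratio of means in mouthparts, olea was 137-fold higher for GB45797, 101-fold for GB55205, 63.1-fold for GB55209, 49.7-fold for GB55208 and 20.5-fold for GB55207. It was 9.09-fold higher for GB55212, 6.46-fold for GB55204 and 3.7-fold for GB55211, of which GB55211 did not pass. GB55206 and GB45796 had ratios of 1.44 and 1.42 and overlapped between the groups. Olea mouthparts replicate 1 carried much of the size of these ratios: without it the ratio moved by over 1.5 times for 9 members, to 56.5 for GB45797 and 51.0 for GB55205, and to 0.921 for GB55206, which then lay lower in olea. The family took 0.147% (95% exact interval 0.146% to 0.149%) of that library 0.0337% (0.0330% to 0.0344%) of replicate 2 and 0.0430% (0.0422% to 0.0438%) of replicate 3.

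**Figure D3:**
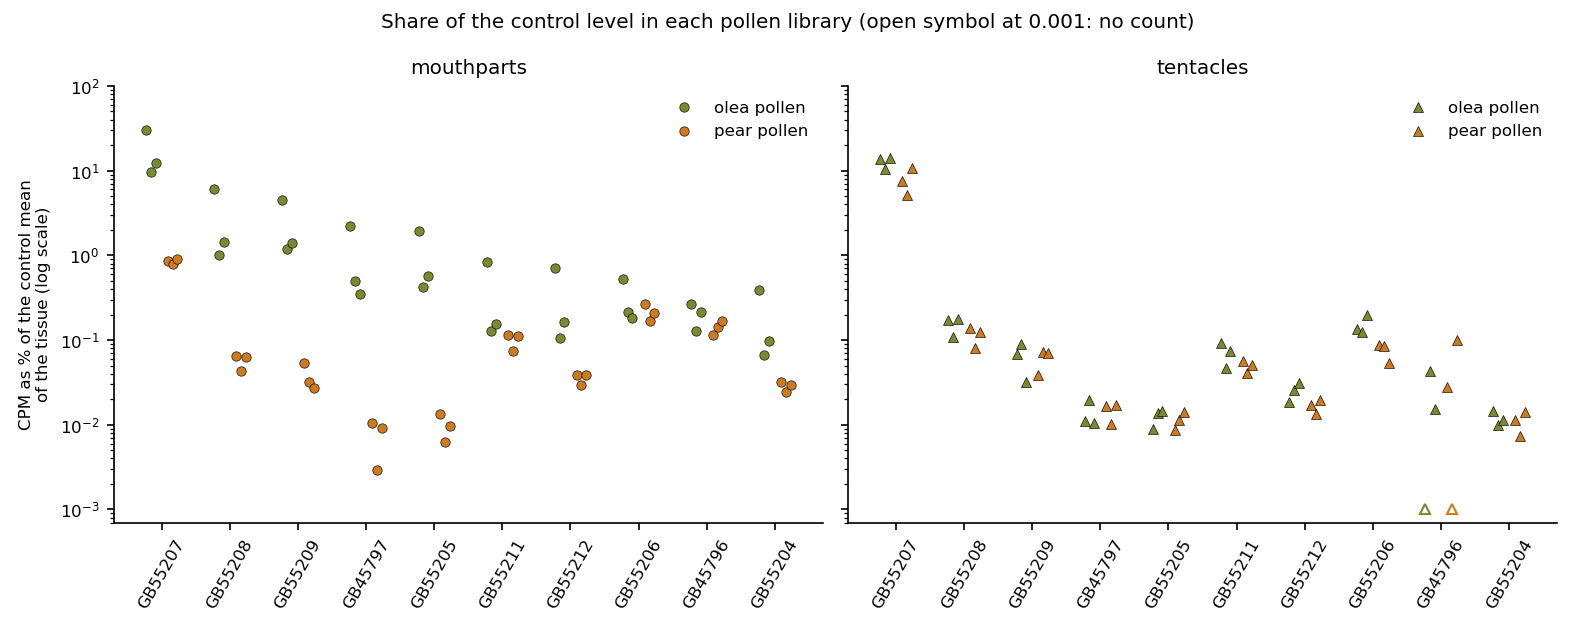
CPM of each pollen library as a percentage of the control mean of its tissue (log scale), with olea left of pear for each member; the members are in the order of the mean share left in olea mouthparts, from GB55207 to GB55204. In mouthparts the olea points lie above the pear points for 8 members and overlap for GB55206 and GB45796, and in tentacles the olea and pear points overlap for all members but GB55206.

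The makeup of the family's counts, which are not scaled by length, differed between groups. GB55205 gave 53.6% to 56.2% of the members' counts in olea mouthparts and 12.5% to 19.2% in pear mouthparts, against 56.2% to 57.1% in control mouthparts. Relative to the GB55205 count of the same library, GB45797 stood at 6.46% to 12.3% in olea, 4.95% to 9.8% in pear and 10.1% to 11.1% in control mouthparts. GB55204 stood at 2.97% to 3.78% in olea and 45.4% to 75.2% in pear, against 18.7% to 19.0% in control mouthparts. So GB55204 was low relative to GB55205 in olea and high in pear, as were GB55206, GB55211, GB55212 and GB45796, while GB55207, GB55208 and GB55209 were above their control ratio in both pollen groups. GB55207 stood at 28.4% to 41.8% in olea and 117% to 237% in pear, against 1.58% to 2.20% in control mouthparts and 0.124% to 0.169% in control tentacles. These ratios need no scaling between libraries, but the members are related copies, and how reads that match several of them were counted is not given in the sources used here, so the split between members is uncertain.

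**Figure D4:**
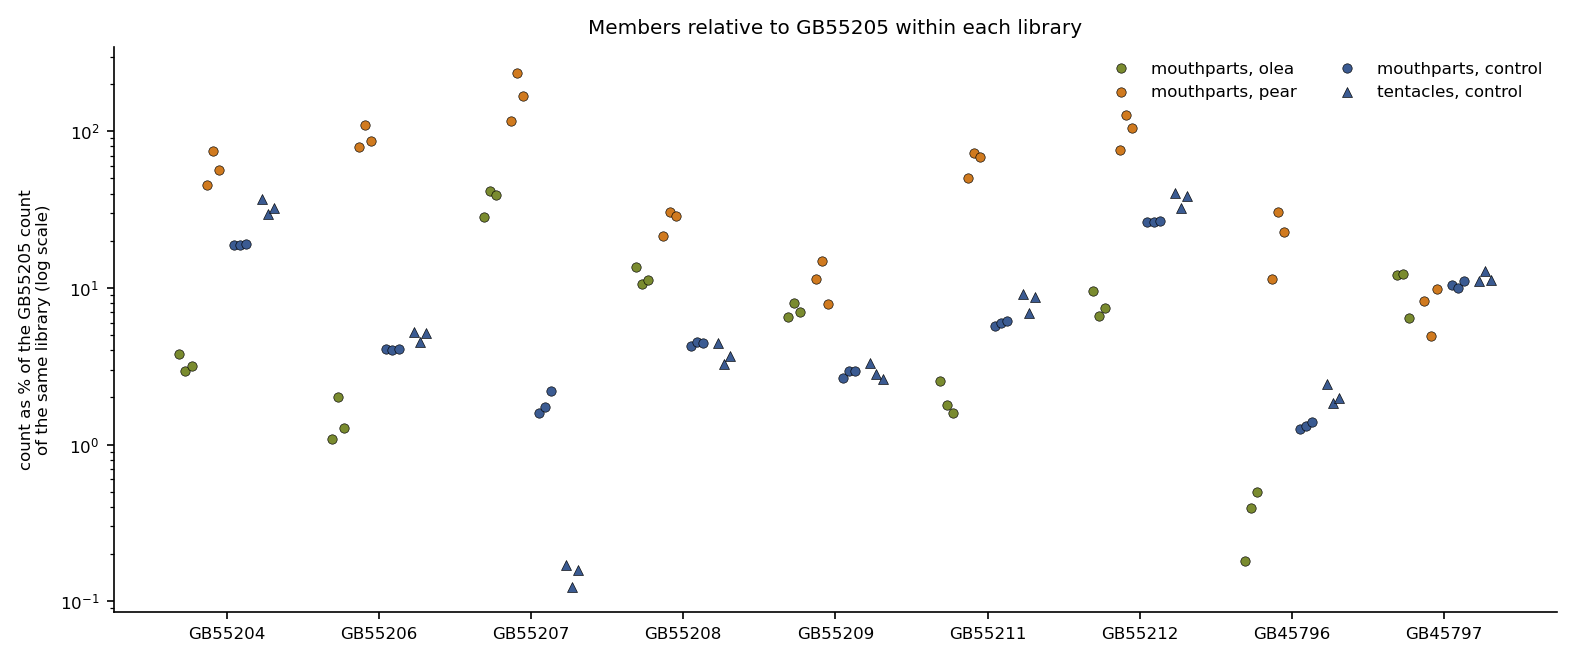
Count of the other 9 members as a percentage of the GB55205 count of the same library (log scale) in olea, pear and control mouthparts (circles) and in control tentacles (triangles), 3 libraries each. The pear points are above the control points for 8 members and below them for GB45797, the olea points are below control for GB55204, GB55206, GB55211, GB55212 and GB45796, and GB55207 spans from 0.124% to 237%.

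By FPKM, the order of members also changed. In control mouthparts GB55205 led at 26679 ± 1263 FPKM, above GB45797 at 6671 ± 124, GB55212 at 6238 ± 262, GB55204 at 4017 ± 159 and GB55211 at 2247 ± 141 (SD, n = 3). Of these, GB45797 and GB55212 overlapped in range. GB55209 followed at 1886 ± 171, GB55208 at 1373 ± 101 and GB55206 at 968 ± 36.9 FPKM, while GB55207 at 465 ± 72.0 and GB45796 at 457 ± 28.9 came last and did not differ beyond their spread. In control tentacles GB55205 led at 7112 ± 1851 FPKM, and GB55212, GB45797 and GB55204, at 2286 ± 352, 2007 ± 691 and 1835 ± 282, lay within each other's spread. GB55211 came next at 808 ± 100.4 FPKM, then GB55209 at 508 ± 111, GB55206 at 314 ± 57.1 and GB55208 at 306 ± 34.1, of which GB55206 and GB55208 lay within their spread. GB45796 had 188 ± 25.6 and GB55207 was last at 9.87 ± 1.06 FPKM. GB55207 led in pear mouthparts at 3.93 ± 0.215 FPKM, next to 2.59 ± 0.945 for GB55205, and by its mean was second in olea mouthparts at 79.7 ± 52.3 behind GB55205 at 259 ± 225. In olea mouthparts the range of GB55207 overlapped that of GB55205 and that of GB45797, at 67.9 ± 70.1 FPKM. In olea tentacles GB55207 had 1.24 ± 0.192 and GB55205 0.872 ± 0.221 FPKM, and in pear tentacles they had 0.764 ± 0.272 and 0.807 ± 0.189. No other member exceeded 0.564 FPKM on average in tentacles of a pollen group.

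Between the tissues, the mean CPM of each member was higher in mouthparts in all 3 groups. Calls are given without being read as evidence, since the same counts chose the members. With olea pollen 10 of 10 were past the threshold and higher in mouthparts, where 75.6% of all tested genes passed in either direction. With pear pollen 7 of 10 did so, where 68.5% of all genes passed, and in control bees 10 of 10, where 70.3% passed. With olea pollen the ratio of mouthparts to tentacles means had a median of 49.3 and ran from 6.18 for GB55206 to 292.7 for GB55205. It had a median of 5.37 (1.70 to 8.70) with pear pollen and 3.17 (2.17 to 46.6) in control bees. The ratios with pollen rest on few tentacles counts, between 27 and 48 per olea library for GB55205. Without olea mouthparts replicate 1, 9 members moved by over 1.5 times with olea, to 3.95 for GB55206 and 148 for GB55205, and without pear tentacles replicate 3 GB45796 had a ratio of 24.8 with pear. Without pear tentacles replicate 1, or without replicate 2, 4 members passed in the pear group.

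Across the 18 libraries the members moved together, with GB55207 the least so. Over log2(CPM + 1), Pearson's r was 0.935 to 0.999 for the 36 pairs of members without GB55207 and 0.68 to 0.849 for its 9 pairs. The libraries fall into 6 groups that differ widely, so these values describe the group pattern and carry no p. The genes outside the family with profiles most like GB55205 were fructose-bisphosphate aldolase GB40734 (r = 0.969), a glycolytic enzyme, venom acid phosphatase Acph-1 GB41326 (r = 0.969), protein disulfide-isomerase A6 homolog GB54601 (r = 0.966), which helps secreted proteins fold, the unnamed GB53576 (r = 0.951) and glucose oxidase GB44549 (r = 0.95). For GB45797 they were GB41326 (r = 0.983), GB54601 (r = 0.961), GB40734 (r = 0.953), RNA polymerase II-associated factor 1 homolog GB41227 (r = 0.953) and the unnamed GB50115 (r = 0.943). Likeness of profile did not mean likeness of size. GB54601 averaged 132 ± 9.75 CPM in olea and 110.0 ± 9.85 CPM in pear mouthparts, against 185 ± 3.79 CPM in control mouthparts, while GB53576 averaged 1286 ± 195 CPM in olea and 3.52 ± 0.669 CPM in pear, against 4417 ± 941 CPM in control mouthparts (SD, n = 3 each).

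The 18 other genes with the royal jelly domain include yellow proteins, and apart from GB55213 their tested log2 fold changes against control lay between -1.52 and 1.85. Against control, 2 of 16 tested were higher and 7 lower in olea mouthparts (median log2 fold change -0.36, against -0.01 over all genes tested), and 2 were higher and 8 lower in pear mouthparts (-0.44, against 0.01). In tentacles 3 of 13 were higher and 5 lower with olea (0.00, against 0.00) and 2 were higher and 5 lower with pear (-0.20, against -0.01). Of all tested genes 26.8% passed in olea mouthparts, 33.8% in pear mouthparts, 27.9% in olea tentacles and 29.5% in pear tentacles. GB55213, a yellow-f2-like gene numbered next to the run, was the exception in size. GB55213 measured 35.4, 32.9 and 30.9 CPM in olea mouthparts and 46.6, 37.7 and 44.9 CPM in pear mouthparts, against 1871, 1948 and 1856 CPM in control mouthparts. In tentacles it measured 13.6, 14 and 13.8 CPM in olea tentacles and 12.5, 11.3 and 14.1 CPM in pear tentacles, against 758, 1149 and 969.9 CPM in control tentacles. It fell in all 4 comparisons, by 5.90 ± 0.09 with olea and 5.59 ± 0.09 with pear in mouthparts and by 6.12 ± 0.19 with olea and 6.22 ± 0.19 with pear in tentacles on the log2 scale (± SE, edgeR adjusted p 1.7e-12, 2.5e-12, 3.1e-07 and 2.2e-07). Unlike most members it was lower in olea than in pear mouthparts, by a log2 fold change of -0.31 ± 0.08 (edgeR adjusted p 0.011).

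GB45951, another yellow-f2-like gene, showed the reverse. GB45951 measured 10346, 9042 and 10556 CPM in olea mouthparts and 10216, 8113 and 10124 CPM in pear mouthparts, against 6779, 6704 and 6544 CPM in control mouthparts. It rose against control by 0.52 ± 0.09 with olea and 0.37 ± 0.09 with pear (log2 ± SE, edgeR adjusted p 0.0013 and 0.0069). GB46294, also yellow-f2-like, fell in mouthparts by 1.52 ± 0.36 with olea and 1.23 ± 0.35 with pear (edgeR adjusted p 0.019 and 0.029), and lost the call in some fits that left out a library (edgeR adjusted p up to 0.063 with olea, without olea replicate 2, and up to 0.1 with pear, without pear replicate 1). GB55729 fell in tentacles by 0.78 ± 0.19 with olea and 0.91 ± 0.19 with pear (edgeR adjusted p 0.0096 and 0.0038), as did GB55203 by 0.44 ± 0.11 with olea (edgeR adjusted p 0.013) and GB55202 by 0.80 ± 0.28 with pear (edgeR adjusted p 0.047). Without olea tentacles replicate 3 GB55203 had edgeR adjusted p 0.056, and without pear tentacles replicate 3 GB55202 had 0.14. The call of GB55202 was lost in 11 alternatives, among them DESeq2, the replicate block, no filter on low counts, limma on FPKM, and fits of 6 or 18 libraries. GB55210, which lies inside the numbered run, was no member: it had 5, 15 and 8 counts in olea and 31, 21 and 25 counts in pear mouthparts, against 21, 24 and 29 counts in control mouthparts, and at most 9 counts in any tentacles library. It fell in olea mouthparts by 1.35 ± 0.37 (edgeR adjusted p 0.018, and 0.072 without control replicate 3). A predicted gene (newGene_1165) with the domain rose in pear mouthparts by 1.85 ± 0.57 (edgeR adjusted p 0.026, and 0.1 without control replicate 2) and had at most 0.288 CPM in a control library.

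Between olea and pear, 2 of 16 other domain genes were higher and 3 lower in mouthparts, among them GB55729 (log2 fold change 0.78 ± 0.09, edgeR adjusted p 0.00014), GB55216, a dopachrome conversion enzyme (-0.58 ± 0.11, 0.0021), and newGene_1165 (-2.10 ± 0.59, 0.018, or 0.065 without pear replicate 3). Of all tested genes 30.9% passed in that comparison. In tentacles, where 2.6% of all tested genes passed, 1 of 13 was higher, GB55214, named yellow-fa (0.29 ± 0.06, edgeR adjusted p 0.028). That call was lost in every fit that left out a library of these groups, with edgeR adjusted p up to 0.14 without olea replicate 2, and with the replicate block and limma on FPKM. Between tissues, 10 of 16 were higher and 3 lower in olea mouthparts, 13 and 3 in pear, and 12 and 3 in control mouthparts than in tentacles. Of all tested genes 75.6% passed in olea, 68.5% in pear and 70.3% in control bees, in either direction. GB45951, GB55201 and GB55203 were among those higher, by 5.90 ± 0.11 (olea), 5.36 ± 0.26 (pear) and 4.66 ± 0.09 (pear), all with edgeR adjusted p at most 4.8e-13. GB55171 was higher by 5.20 ± 0.74 with olea and 5.62 ± 0.67 in control bees (edgeR adjusted p 4.2e-06 and 5.2e-07).

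Of 16 enzymes that the hypopharyngeal gland is known to make or whose names match them, 13 could be tested, and GB45781 and GB52859 had no count in any library. The list was meant for enzymes and peptides, but it holds no peptide. Against control, 1 was higher and 9 lower in olea mouthparts (median log2 fold change -0.84, against -0.01 over all genes), 1 higher and 8 lower in pear mouthparts (-0.97, against 0.01), 1 higher and 9 lower in olea tentacles (-0.28, against 0.00), and 2 higher and 9 lower in pear tentacles (-0.32, against -0.01). Of all tested genes 26.8%, 33.8%, 27.9% and 29.5% passed, in the same order. Glucose oxidase, which makes the hydrogen peroxide of honey, was among the genes with profiles most like GB55205. GB44549 measured 1018, 703 and 760.5 CPM in olea mouthparts and 8.66, 7.63 and 7.85 CPM in pear mouthparts, against 3538, 3818 and 4193 CPM in control mouthparts. In tentacles it measured 0.949, 0.529 and 0.636 CPM in olea tentacles and 0.353, 0.274 and 1.87 CPM in pear tentacles, against 488, 794 and 668 CPM in control tentacles. It fell by 2.28 ± 0.13 with olea and 9.04 ± 0.18 with pear in mouthparts and by 9.86 ± 0.48 with olea and 9.58 ± 0.47 with pear in tentacles (log2 ± SE, edgeR adjusted p 9.0e-07, 4.0e-11, 2.4e-05 and 1.9e-05). In olea mouthparts glucose oxidase thus kept a larger part of its control level than GB55205 did, with means of 827 CPM and 3849.8 CPM in olea and control.

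The starch-digesting alpha-amylase GB49854 also fell with either pollen in both tissues, though by less than GB44549 in tentacles. GB49854 measured 253, 133 and 140.5 CPM in olea mouthparts and 0.347, 0 and 0.271 CPM in pear mouthparts, against 375, 463 and 757 CPM in control mouthparts. It fell by 1.66 ± 0.39 with olea and 11.4 ± 0.71 with pear in mouthparts (log2 ± SE, edgeR adjusted p 0.024, or 0.077 without olea replicate 3, and 6.0e-05), and in tentacles by 3.93 ± 0.56 with olea and 4.25 ± 0.57 with pear (edgeR adjusted p 0.00079 and 0.00051). Its call in olea mouthparts was lost in 7 alternatives, among them DESeq2, the replicate block and the fit of 6 libraries. GB51446, whose best hit is the same glucose oxidase gene as that of GB44549, so that reads may be split between them, fell by 1.57 ± 0.32 in olea and 7.77 ± 0.49 in pear mouthparts (edgeR adjusted p 0.013 and 4.2e-05). It had no count in olea tentacles, at least 180.1-fold below control with a floor of 3 counts over the group, and fell by 7.03 ± 0.56 in pear tentacles (edgeR adjusted p 4.0e-05). Hbg3 (GB43247), an alpha-glucosidase that splits sucrose, fell in mouthparts by 0.84 ± 0.23 with olea and 3.18 ± 0.25 with pear (edgeR adjusted p 0.030 and 4.1e-05). Hbg2 (GB54549), a relative, fell by 1.62 ± 0.37 in olea mouthparts (edgeR adjusted p 0.014, or 0.054 without olea replicate 3). Counting the conflicting mouthparts libraries as pear, GB44549, GB49854 and GB51446 had log2 fold changes of -3.27, -2.67 and -2.57 in pear against control mouthparts and did not pass (edgeR adjusted p 0.21, 0.38 and 0.25). Maltase 1-like GB43248 went the other way and rose by 0.82 ± 0.08 with olea and 0.998 ± 0.077 with pear in mouthparts (edgeR adjusted p 1.8e-05 and 1.6e-06). The list also holds neutral and lysosomal alpha-glucosidases, which trim sugars inside cells of any kind, and genes matched by name, such as the glucosylceramidases GB53578 and GB53579, whose enzymes cleave a lipid. Here "gland genes" means genes of this list, whether or not the gland makes their product.

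Between olea and pear, 7 of 13 gland genes were higher in olea mouthparts and 0 were lower (median 0.30, against -0.01 over all genes), led by GB49854 (9.77 ± 0.71, edgeR adjusted p 0.00022), GB44549 (6.75 ± 0.16, 1.9e-09) and GB51446 (6.21 ± 0.49, 0.00024). Of all tested genes 30.9% passed in that comparison. In tentacles, where 2.6% of all tested genes passed, 0 of 13 passed with edgeR, 2 had an unadjusted p under 0.05, and DESeq2 called 1. The smallest p was that of GB43247 (0.23 ± 0.06, edgeR adjusted p 0.084). Mouthparts against tentacles gave 8 higher and 3 lower in olea, 5 and 4 in pear, and 9 and 2 in control bees. Of all tested genes 75.6%, 68.5% and 70.3% passed in these comparisons, so the counts alone do not set the gland genes apart. GB54549 was higher by 5.17 ± 0.43 in pear mouthparts (edgeR adjusted p 9.5e-09) and alpha-amylase GB48667 lower by 3.68 ± 0.17 on the same scale (edgeR adjusted p 3.6e-13). The summed share of the 16 was 0.47% to 0.691% in olea and 0.179% to 0.203% in pear mouthparts, against 1.04% to 1.43% in control mouthparts. In tentacles it was 0.171% to 0.173% in olea and 0.168% to 0.170% in pear, against 0.245% to 0.315% in control.

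**Figure D5:**
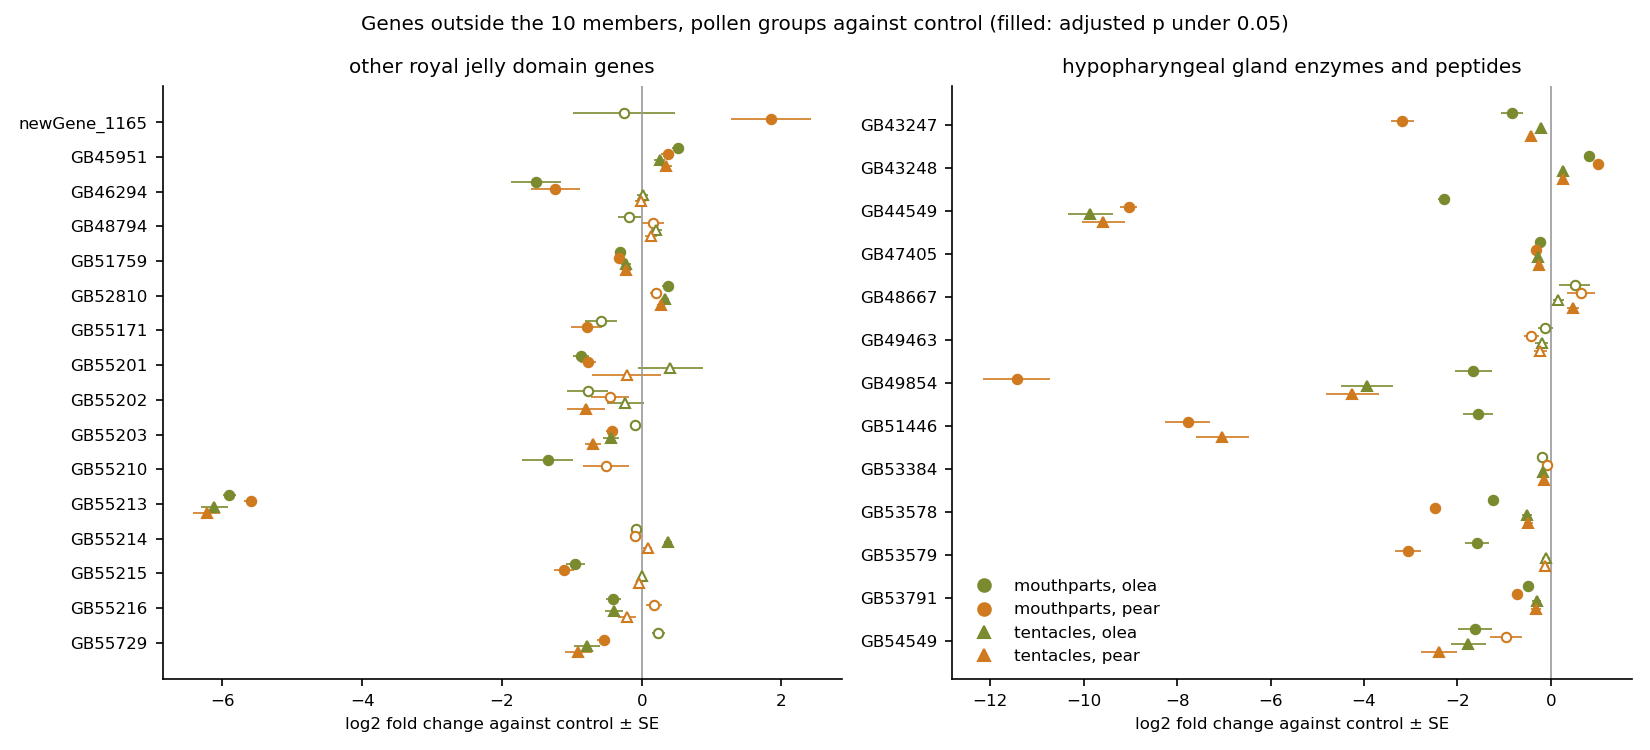
Log2 fold change (± SE) against the control of the same tissue for the tested genes outside the 10 members, in olea and pear mouthparts (circles) and tentacles (triangles); filled symbols have edgeR adjusted p under 0.05, and a comparison is left out where a group held 3 counts or fewer. GB55213 lies near -6 in all 4 comparisons, and GB44549 lies at -2.28 in olea mouthparts and below -9 in the other 3.

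Whether the effect of a pollen differed between the tissues was tested in a fit of all 18 libraries, and the genes outside the 10 members are given. For the effect of olea, mouthparts minus tentacles, 15.4% of all tested genes passed, and 1 of 16 other domain genes was higher and 5 lower. Of 13 genes of the gland list 3 were higher and 2 lower, the lower ones being the glucosylceramidases GB53578 and GB53579, matched by name. For pear 12.8% of all tested genes passed, with 1 of 16 other domain genes higher and 2 lower. Of 13 genes of the gland list 1 was higher and 4 lower, with GB53578 and GB53579 again among the lower. Glucose oxidase GB44549 had the effect of olea differ by 7.55 ± 0.49 (log2 ± SE, edgeR adjusted p 7.6e-07), that is, it fell far less in mouthparts than in tentacles. GB55213 had the effect of pear differ by 0.62 ± 0.17 (edgeR adjusted p 0.024).

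Lists for other cell types and for the secretory route are given beside these results. The share of all tested genes called was 26.8% for olea mouthparts, 33.8% for pear mouthparts, 27.9% for olea tentacles and 29.5% for pear tentacles. In olea mouthparts each of the 4 lists had a share of called genes below it. The neuron and secretory route lists were above it in every other comparison of a pollen group with control. Muscle was above it in pear tentacles alone, and fat body in pear mouthparts and olea tentacles. The 4 fat body genes were transferrins, a melanotransferrin and an apolipophorin-like gene, with no vitellogenin or hexamerin in the list. These genes took 0.406% to 0.473% of counts in olea and 0.415% to 0.452% in pear mouthparts, against 0.397% to 0.412% in control, and 1 was higher in olea (0 lower) and 1 higher and 1 lower in pear. Muscle genes (28) took 2.29% to 3.11% in olea and 2.20% to 3.23% in pear, against 2.01% to 2.10% in control mouthparts, and of 27 tested 4 were higher and 3 lower with olea, 5 and 4 with pear. In tentacles 6 of 26 muscle genes were lower with olea and 18 with pear, and 1 was higher with each. Neuron genes (24) took 0.0853% to 0.0932% in olea and 0.0994% to 0.107% in pear, against 0.0792% to 0.0843% in control mouthparts, with 3 of 23 higher and 2 lower in olea and 10 higher and 1 lower in pear. In tentacles 12 of 24 neuron genes were higher with olea and 10 with pear, with 0 lower, and 1 of 4 fat body genes was higher with each, 1 lower with olea. Genes for protein entry into the endoplasmic reticulum (23), through which secreted proteins pass, took 0.186% to 0.204% of counts in olea and 0.158% to 0.180% in pear, against 0.178% to 0.183% in control mouthparts. Of 22 tested, 2 were higher and 2 lower in olea mouthparts, 1 was higher and 12 lower in pear mouthparts, and 9 were lower and 0 higher in tentacles of each pollen group. In mouthparts 1 neuron gene had no count in the olea group and 1 had none in the pear group. Muscle gene GB45764 had no count in olea mouthparts, where its control mean was only 0.0455 CPM. A different muscle gene, GB48044, had none in olea tentacles, at least 64.1-fold below control with a floor of 3 counts over the group. The part of these lists in the results on the family was not tested.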

How the data were processed

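Per the labels' protocols, a Qiagen kit gave the RNA, of which 1.3 ug went into a SMARTER mRNA library kit. Raw counts of reads were deposited for every gene and library, and FPKM values were deposited beside them. HISAT2 is named in the submitters' processing notes. Not given in the sources used here are its version, the genome build, annotation, counter, strandedness and treatment of multiply matching reads. Joining 70 overlong lines to their preceding lines left 17545 genes.

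Counts were analysed in R 4.3.3 with edgeR 4.0.16 (TMM scaling, filterByExpr by group, robust quasi-likelihood F test). Pollen groups were compared in a fit of the 9 libraries of their tissue, and tissues and interactions in a fit of all 18. Adjusted p is Benjamini-Hochberg adjusted over all genes tested, with a threshold of 0.05. The fit of pear against control tentacles, and no other, was also run on simulated counts. That run did not cover levels as low as those of the members in pollen groups. CPM and its folds use library totals without TMM. Intervals (95%, exact) and floors (3 counts) cover counting error only, since reads are not independent molecules. No library was a copy of another: replicates differed beyond sampling noise.

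The members and gene lists (gland enzymes and peptides, fat body, neurons, muscle, entry into the endoplasmic reticulum) were chosen with earlier results of these data known, and the fat body pattern was corrected after the annotation was seen. Names are the table's best KEGG hits, or its Swiss-Prot or NR protein entries where no KEGG hit had an e-value of at most 1e-10. Named were all members, up to 3 genes per comparison from the gland and other domain lists by fold change among those passing (or the smallest p), and the 5 genes most like GB55205 and GB45797. Genes whose pollen effect differed between tissues, and GB43248, GB45951, GB55203, GB55213 and Hbg genes in further comparisons, and GB55210, were chosen after their values were seen. Replicate numbers were checked as pairs: same-numbered deviations correlated above 0.1 throughout in 1 of 15 pairs of groups, olea with pear mouthparts (r 0.112 to 0.199). Alternatives were RLE factors, no filter, DESeq2 1.42.0, limma 3.58.1 on log2(FPKM + 1), a replicate block, members left out of scaling, fits of 6 or 18 libraries, libraries left out in turn, and the other reading of the conflicting labels.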

Additional observations from a re-analysis of the deposited data

Results flagged for a closer look

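Every tested gene of the other royal jelly domain list and of the gland list is given here for which the effect of a pollen against control differed between the tissues (edgeR quasi-likelihood test of the difference, mouthparts minus tentacles, log2 ± SE, adjusted over all genes). Members of the family are left out, since their counts were used to choose them. For the effect of olea, the difference was 7.55 ± 0.49 for glucose oxidase GB44549 (edgeR adjusted p 7.6e-07), 0.977 ± 0.21 for GB55729 (edgeR adjusted p 0.0054) and 0.533 ± 0.1 for maltase 1-like GB43248 (edgeR adjusted p 0.0015), which rose in both tissues. It was -0.984 ± 0.15 for GB55215 (edgeR adjusted p 0.00023), -0.487 ± 0.098 for yellow-fa GB55214 (edgeR adjusted p 0.0024) and -1.3 ± 0.4 for GB55201 (edgeR adjusted p 0.035). For GB46294 it was -1.56 ± 0.37 (edgeR adjusted p 0.011), and for GB55210, which rests on few counts, -2.52 ± 0.77 (edgeR adjusted p 0.032). The genes named as glucosylceramidases had -0.753 ± 0.12 (GB53578, edgeR adjusted p 0.00048) and -1.5 ± 0.27 (GB53579, edgeR adjusted p 0.002). For the effect of pear, the difference was -7.22 ± 2.0 for alpha-amylase GB49854 (edgeR adjusted p 0.032), which had few counts in pear mouthparts. The difference was -2.76 ± 0.25 for alpha-glucosidase GB43247 (edgeR adjusted p 1.7e-06), -2.01 ± 0.13 for GB53578 (edgeR adjusted p 1.9e-09) and -2.95 ± 0.27 for GB53579 (edgeR adjusted p 5.1e-06). It was -1.08 ± 0.15 for GB55215 (edgeR adjusted p 5.5e-05) and -1.23 ± 0.36 for GB46294 (edgeR adjusted p 0.036), against 0.726 ± 0.1 for GB43248 (edgeR adjusted p 6.7e-05) and 0.615 ± 0.17 for GB55213 (edgeR adjusted p 0.024), which fell in both tissues. GB51446 also passed for olea, but its fitted difference is not printed, because olea tentacles held no count of it and the fitted value depends on the prior count. Groups of 3 libraries are too small for a search for single outlying libraries.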

How the results depend on the processing

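Of 372 recomputed counts of called genes, for 27 combinations of gene list and comparison, 354 stayed within 1.5 times the reported count, and 11 of 1236 recomputed log2 fold changes of members changed sign, 10 in olea against pear tentacles and 1 (GB55206 without olea replicate 1) in olea against pear mouthparts, where the member had not passed. Those combinations are of the members, the other domain genes and the gland genes. Counts of the other lists also moved by over 1.5 times: fat body in 36 of 124 recomputed counts, neurons in 22, muscle in 17 and entry into the endoplasmic reticulum in 10. Of the members' recomputed log2 fold changes, 125 moved by more than the spread between replicates. The other exceptions were as follows. For members in mouthparts against tentacles with pear pollen, leaving out a library gave 4 calls in place of 7 at the lowest. For the other domain genes, olea against control tentacles gave 4 to 5 calls in place of 8 with any single olea library left out and 5 with only the 6 libraries compared. Olea against pear tentacles gave 0 calls in place of 1 with the replicate block, with limma on FPKM and with any single one of the 6 libraries left out, and 2 with only those 6. Olea against pear mouthparts gave 8 calls in place of 5 without olea replicate 2. For gland genes in olea against pear tentacles, DESeq2 gave 1 call and the 6 libraries alone gave 2, in place of 0. The replicate block changed no other call count of these lists by over 1.5 times. Over all genes, olea against pear tentacles gave 337 calls, 519 with DESeq2, 1413 with 6 libraries, 168 with all 18 and 143 to 186 with a library left out. The cause was not tested. The FPKM scale gave the median log2 fold change of all genes in mouthparts against tentacles as -0.27 in olea, -0.18 in pear and -0.30 in control bees, in place of -0.08, -0.03 and -0.02. Members with pollen in tentacles rest on 0 to 67 counts per library, which limits their folds.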
